A study of Mus musculus with 9 samples.

Results

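The integrin subunits and laminin chains were the 37 genes of 23038 in the deposited tables whose symbols name an integrin alpha subunit (18 genes), an integrin beta subunit (8 genes) or a laminin alpha, beta or gamma chain (11 genes). They were picked by symbol alone, with earlier results of these data known. Their levels were read in 3 groups of sensory neurons sorted by fluorescence out of the dorsal root ganglia of newborn mice, with 3 libraries of bulk RNA-seq in each group. All animals were on a mixed C57/Sv129 background, pups of both sexes were used, and each sample held the ganglia of 1 to 4 pups.

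TrkC:GFP neurons carried a bacterial artificial chromosome in which Ntrk3 (TrkC) sequences drive GFP in neurons that express Runx3 and TrkC. Per the labels this group joined proprioceptors with slowly adapting low-threshold mechanoreceptors, and its samples were taken at postnatal day 6, 2 and 1 from 4, 2 and 4 animals. Rx3+/+;PV:tdT neurons, called wild-type PV neurons below, were marked by Cre driven from the parvalbumin gene and a Cre-dependent tdTomato reporter, given as Ai9 in the design text and as Ai14 in the labels. They joined proprioceptors with rapidly adapting low-threshold mechanoreceptors and came from day 6, 4 and 3 and from 4, 3 and 3 animals. Rx3-/-;PV:tdT neurons, called mutant PV neurons below, carried the same Cre and reporter in animals lacking Runx3. Proprioceptors do not survive there, so the labels give this group as rapidly adapting mechanoreceptors. Its samples came from day 3, 0 and 0 and from 1, 1 and 4 animals. Cre and reporter were thus shared by both PV groups and absent from the TrkC:GFP line. Nothing in the labels says that samples shared a litter or a sorting day, so p-values cover the spread among these samples alone, which may in part be technical.

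Integrins are receptors made of 1 alpha and 1 beta subunit that hold cells to the extracellular matrix and signal from it, and the alpha subunit largely sets which ligand is bound. Laminins are trimers of an alpha, a beta and a gamma chain, and are main components of the basement membranes that Schwann cells lay down around axons and that satellite cells lay down around sensory cell bodies. In dorsal root ganglion neurons, laminin-binding integrins are known for their part in axon growth.

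Promoter sequence from RefSeq (GRCm38.p6) matched 23 of the 37 genes, with 26 start sites. The 250 bases before the start were searched for the letters TGTGGT and TGCGGT, which RUNX proteins such as the deleted Runx3 are known to recognise, and for the same letters on the other strand, ACCACA and ACCGCA. These letters stood in 3 of the 26 windows (11.5%), in Itga4, Itga8 and 1 of the start sites of Itga3, and in 18.6% of all 32851 windows in the table. The windows of Itga2, Itga4 and Itga3 are shown because these integrins differed between wild-type and mutant neurons (below) and are abundant. Matched letters are in capitals.

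Itga2, chr13:114932101-114932350, minus strand: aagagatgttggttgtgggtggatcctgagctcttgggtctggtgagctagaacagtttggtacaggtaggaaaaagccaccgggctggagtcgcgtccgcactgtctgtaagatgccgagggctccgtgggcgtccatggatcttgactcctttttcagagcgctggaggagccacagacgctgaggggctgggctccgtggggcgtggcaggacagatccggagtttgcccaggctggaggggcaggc
Itga4, chr2:79255176-79255425, plus strand: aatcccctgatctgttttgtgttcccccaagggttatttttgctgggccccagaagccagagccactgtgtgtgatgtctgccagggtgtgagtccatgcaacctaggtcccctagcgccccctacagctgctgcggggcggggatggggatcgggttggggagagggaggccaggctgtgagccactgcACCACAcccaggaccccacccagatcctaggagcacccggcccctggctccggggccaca
Itga3, upstream start, chr11:95076715-95076964, minus strand: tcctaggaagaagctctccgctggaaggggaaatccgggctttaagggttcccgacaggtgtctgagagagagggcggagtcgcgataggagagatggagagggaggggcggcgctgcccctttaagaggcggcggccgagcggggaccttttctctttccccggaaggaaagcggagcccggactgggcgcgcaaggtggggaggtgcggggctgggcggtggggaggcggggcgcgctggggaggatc
Itga3, downstream start, chr11:95069199-95069448, minus strand: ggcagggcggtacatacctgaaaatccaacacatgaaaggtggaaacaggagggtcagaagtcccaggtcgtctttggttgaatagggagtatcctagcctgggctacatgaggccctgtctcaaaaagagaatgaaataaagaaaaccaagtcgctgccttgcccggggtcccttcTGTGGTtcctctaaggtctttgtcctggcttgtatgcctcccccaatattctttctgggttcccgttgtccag

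The Itga2 window held no match in these letters, the Itga4 window held ACCACA at position -60 from the start, and the downstream Itga3 start held TGTGGT at -73. Itga6 and Itgb3, described below, are named without a sequence.

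The tables used here give 1 value per group, but the deposited RPKM (reads scaled by gene length and by library size) of each group proved to be the mean over 3 libraries of whole reads divided by whole-number gene lengths and library sizes. Reads were therefore recovered for each library, including those of all 37 members. Library sizes were 12225112, 10536972 and 7779765 reads in the TrkC:GFP group, 13737224, 12150764 and 11567681 for wild-type PV neurons, and 12847709, 12171315 and 4510352 in the mutant PV group. Libraries are numbered 1 to 3 from deepest to shallowest, and could not be tied to a replicate number or an age. A gene listed as without reads in a library may have held 1 read there. In the deposited group RPKM, Runx3 was at 33.8, 30.4 and 13.5 in TrkC:GFP, wild-type PV and mutant PV neurons, so reads of the deleted gene were lower in mutants but not absent, and the gene's total does not separate its deleted part. Pvalb, whose gene drives the Cre of both PV groups, was at 353, 200.4 and 67.0, Ntrk3 at 141, 81.6 and 25.4, and Ret, a receptor of rapidly adapting mechanoreceptors, at 11.4, 32.6 and 211. Mutant libraries 1 and 2 stood apart, with 79.2 and 104 RPM (reads scaled to a fixed library size, with no correction for gene length) summed over 7 kidney genes against 3.99 in mutant library 3 and 1.73 to 8.26 in the other groups. Gfap had no reads in any library, while the other recovered glial markers had reads in every group.

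The 37 genes spanned the whole range from undetected to abundant. In deposited RPKM, 20 reached 1 in at least 1 group and 17 did not, and 6 reached 10, namely Itgb1, Itga2, Itga6, Itga3, Lamc1 and Itga4. At the other end, 4 genes had under 10 reads in all 9 libraries together (Itgad, Itgax, Itgb2 and Lamc3). The plot of all members by library shows the few genes whose groups stand clear of each other, and the scatter of those with few reads.

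**Figure D1:**
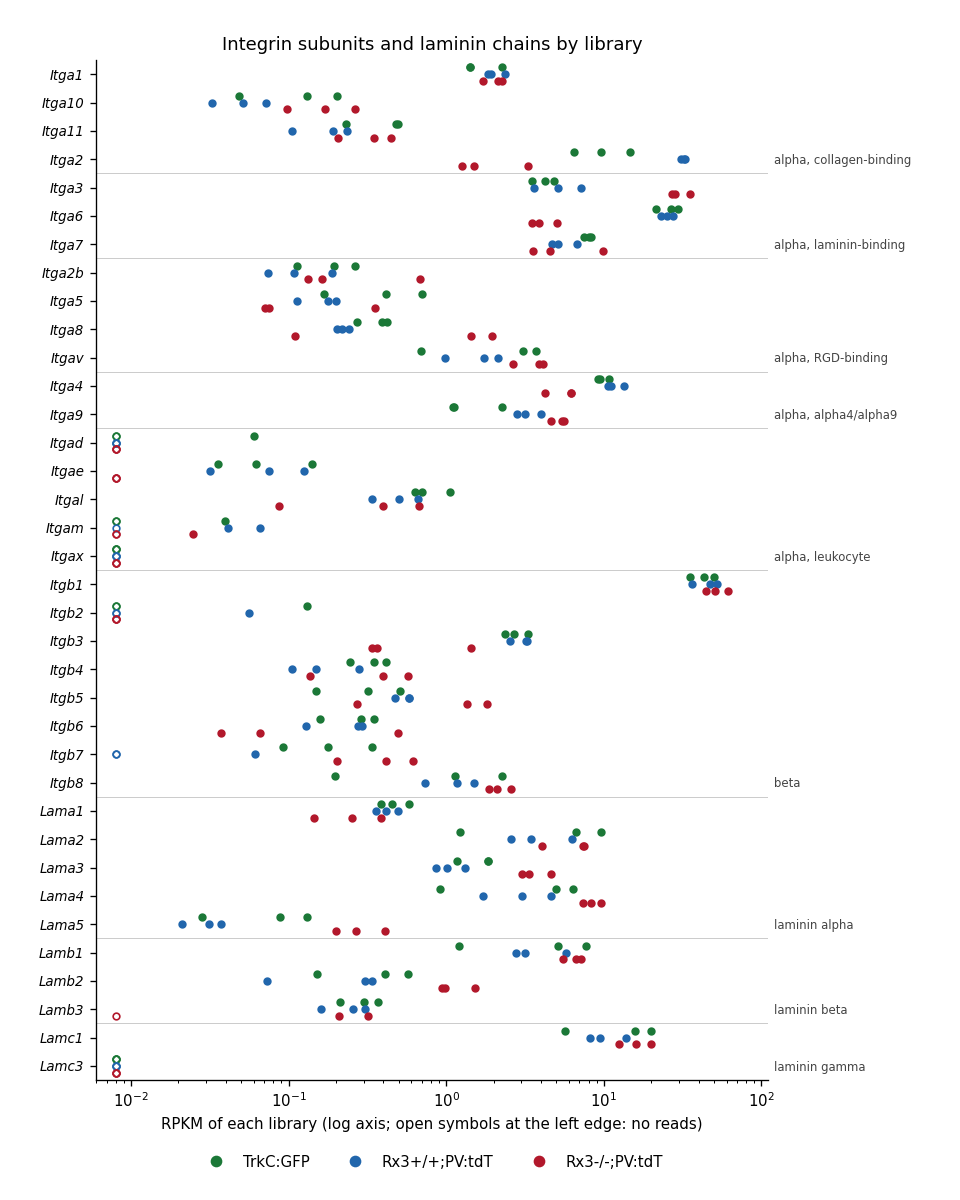
RPKM of the members reported here in each of the 9 libraries, on a log axis, grouped by role and coloured by group. Open symbols at the left edge are libraries without reads. The groups of Itga2 do not overlap, the mutant libraries of Itga3 and Itga6 stand apart from both other groups, and the Itgb1 libraries of all groups share 1 range from 35.4 to 61.0.

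A gene was called where the edgeR p-value in the authors' deposited table, adjusted by Benjamini and Hochberg over all 23038 genes, was under 0.05. Between TrkC:GFP and mutant PV neurons, 5 members were higher in TrkC:GFP in the authors' deposited table (Itga2, Itga4, Itga6 and Itgb3 among them), where 5.87% of all genes were called higher. The same authors' deposited table had these 4 lower (Itga3, Itga9, Lama3 and Lamb2), against 4.2% of all genes. Between wild-type and mutant PV neurons, 5 members including these named genes were higher in the authors' deposited table, against 7.82% of all genes, and 12 were lower, against 8.57%. The 12 were Itga3, Itga8, Itga9, Itgav, Itgb7, Itgb8, Lama3, Lama4, Lama5, Lamb1, Lamb2 and Lamc1, and 6 of them are among the 11 laminin chains. These comparisons share the mutant libraries, so the repeated symbols are not independent. Between wild-type PV and TrkC:GFP neurons, Itga2 and Itga9 were higher in wild-type PV neurons (0.699% of all genes were) and 0 members lower (2.08% were) in the authors' deposited table from edgeR, where 7 were lower at an unadjusted p under 0.05 (9.96% of all genes were), and limma-voom called 0 lower. The median log2 fold change of the 37 was -0.14, -0.62 and -0.38 in these comparisons, beside 0, 0 and -0.03 over all genes. Among the 20 members at 1 RPKM or more in a group it was -0.37, -0.63 and -0.06. All genes at that level had medians of 0.07, -0.03 and -0.09, so the third comparison showed no shift of these members.

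As the labels' ages show, mutant samples were younger (mean day 1.0) than wild-type PV (4.33) and TrkC:GFP samples (3.0). Age, Runx3 genotype and the loss of proprioceptors cannot be told apart in these comparisons, nor can fewer cells of a type and less RNA per cell. To give an error to the differences, limma-voom was fitted to the recovered reads of 16074 genes with at least 10 reads over the 9 libraries, 33 members among them, and its standard errors (SE) and 95% intervals are given below beside the authors' values. limma called 5 members higher and 5 lower in TrkC:GFP than in mutant PV neurons, beside 11.9% and 7.24% of the genes fitted. It called 5 higher and 7 lower in wild-type than in mutant PV neurons (12.8% and 12.2%), and 1 higher and 0 lower in wild-type PV than in TrkC:GFP neurons (0.0747% and 0.143%).

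Of the 35 members with reads, all TrkC:GFP libraries lay above all mutant libraries for 7 and below them for 6, beside 17.9% and 10.3% of genes with reads. All wild-type PV libraries lay above all mutant libraries for 6 and below for 10 (18.1% and 17% of genes with reads), and above all TrkC:GFP libraries for 2 and below for 3 (6.22% and 15.2%). Among these comparisons the share of members stood furthest above that of all genes for wild-type below mutant PV neurons, at 28.6%. The plot of fitted changes shows the widest intervals for genes with few reads.

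**Figure D2:**
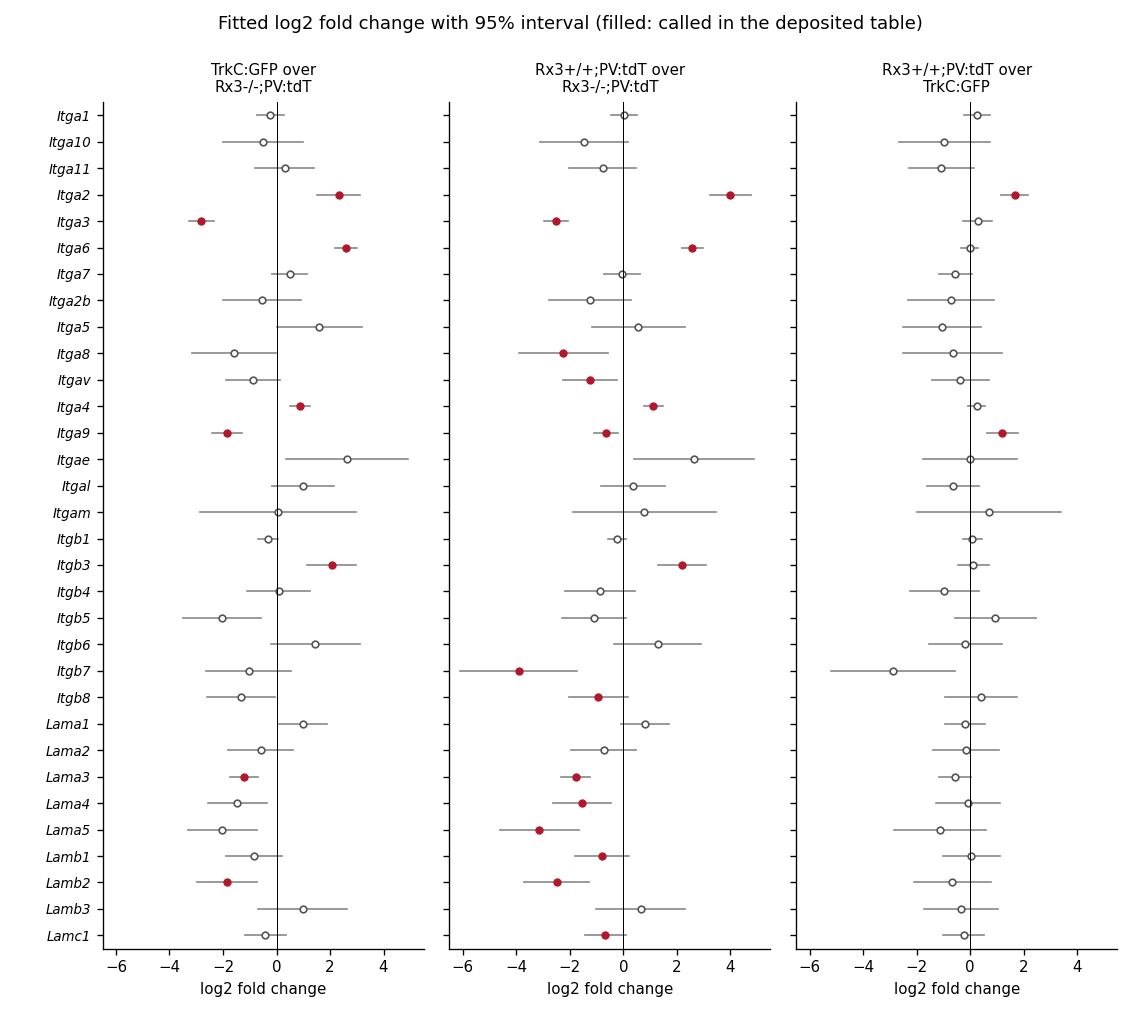
Fitted log2 fold change (limma-voom, recovered reads) of the members reported here with at least 10 reads, with 95% intervals, for TrkC:GFP over mutant PV, wild-type PV over mutant PV, and wild-type PV over TrkC:GFP neurons. Filled symbols mark calls made from the authors' deposited table (adjusted p under 0.05). Itga3 and Itga6 lie on opposite sides of 0 in both comparisons with mutants, and Itga2 lies above 0 in all 3.

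Itga2 encodes the alpha2 subunit, which pairs with beta1 as a receptor for collagens. Its level set all 3 groups apart. Its RPKM was 14.8, 9.65 and 6.49 in the TrkC:GFP libraries, 32.9, 31.0 and 32.3 in the wild-type PV libraries, and 1.49, 3.29 and 1.26 in the mutant PV libraries. No library of a group overlapped another group, and the wild-type PV libraries, from 1576 to 1909 reads, differed least among themselves. The group means were 10.3 ± 4.17, 32.1 ± 0.968 and 2.02 ± 1.11 RPKM (SD, n = 3). In the authors' deposited table Itga2 was 5.03-fold higher in TrkC:GFP than in mutant PV neurons (adjusted edgeR p = 2.2e-07). Wild-type PV neurons exceeded mutants by 3.95 on the log2 scale in the authors' deposited table (adjusted edgeR p = 1.2e-36), and exceeded TrkC:GFP neurons by 1.63 (adjusted p = 4.4e-09). The limma fit gave 2.33 (SE 0.37), 4.00 (SE 0.35) and 1.68 (SE 0.24) for the same differences, with an interval of 3.25 to 4.76 for wild-type over mutant PV neurons. The difference between wild-type PV and TrkC:GFP neurons had an adjusted p of 0.015 in limma, and of 0.094 and 0.07 without wild-type PV library 1 or 3, at fitted values of 1.66 and 1.67. Without mutant libraries 1 and 2 the TrkC:GFP excess over the lone remaining mutant library was 2.96 with a limma adjusted p of 0.057.

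**Figure D3:**
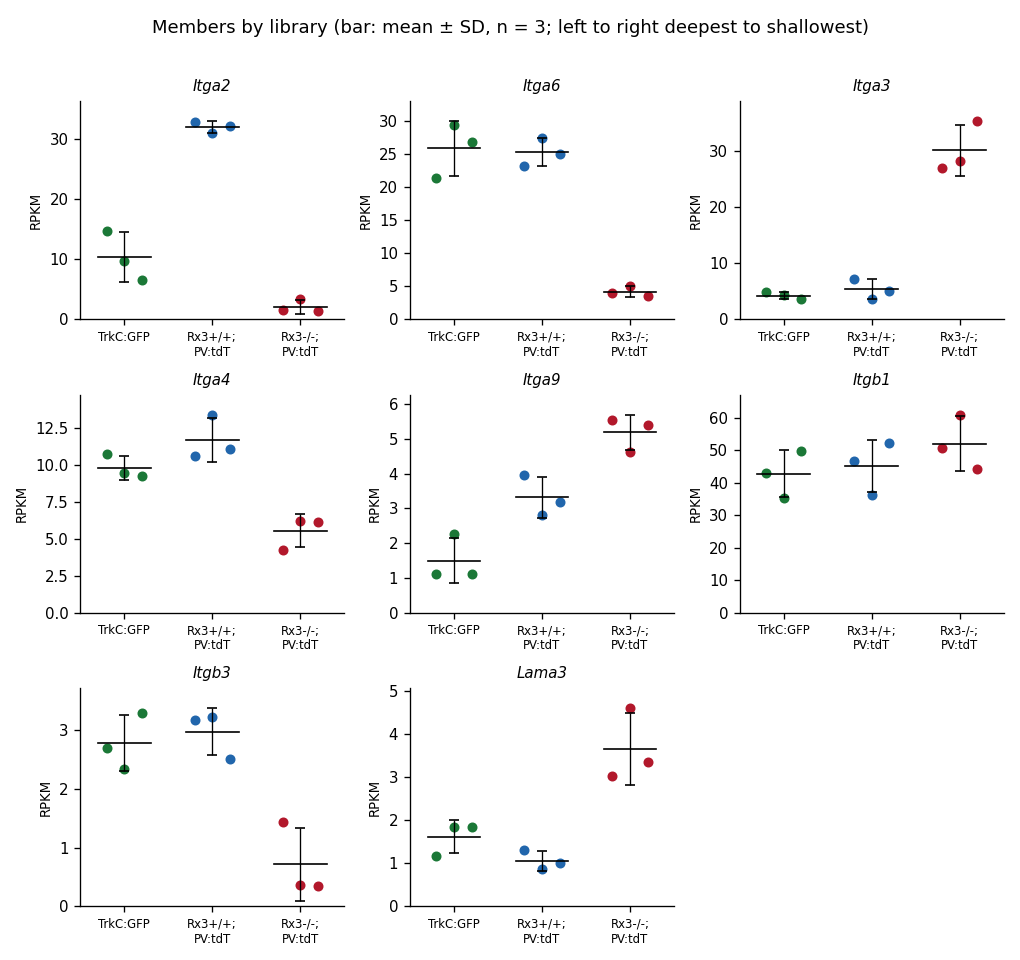
RPKM by library of 8 members, with the group mean and SD (n = 3) as bars and the libraries of a group drawn from deepest to shallowest. The libraries of Itga2 do not overlap between any groups, Itga6, Itga4 and Itgb3 are low in mutant PV neurons, Itga3 and Lama3 are high there, and the groups of Itgb1 overlap.

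The other collagen-binding alpha subunits did not follow Itga2. Itga1 was at 1.70, 2.04 and 2.03 RPKM in TrkC:GFP, wild-type PV and mutant PV neurons, and its libraries overlapped between all groups. Itga10 and Itga11 stayed under 0.5 RPKM in every library, with 2 to 11 and 6 to 25 reads. Of the RPKM summed over these 4 genes, Itga2 made up 75.5 to 85.2% in TrkC:GFP libraries, 92.6 to 94.2% in wild-type PV libraries and 30.8 to 55.0% in mutant PV libraries.

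Itga6 and Itga3 encode laminin-binding subunits, and they moved in opposite directions. Itga6 was at 21.3, 29.4 and 26.8 RPKM in TrkC:GFP libraries, at 23.2, 27.4 and 25.0 in wild-type PV libraries, and at 3.89, 5.04 and 3.48 in mutant PV libraries. Itga3 was at 4.82, 4.23 and 3.50, at 7.19, 3.62 and 5.09, and at 27.0, 28.2 and 35.5 RPKM in the same order. For both genes the mutant libraries lay outside the range of the other 6, below it for Itga6 and above it for Itga3. Itga6 was higher than in mutants by log2 fold changes of 2.63 in TrkC:GFP and 2.59 in wild-type PV neurons in the authors' deposited table (adjusted edgeR p = 1.8e-26 and 5.7e-35). Itga3 was lower by -2.85 and -2.51 in the authors' deposited table (adjusted edgeR p = 4.1e-32 and 5.2e-22). limma intervals were 2.20 to 2.99 and 2.18 to 2.97 for Itga6, and -3.28 to -2.32 and -2.96 to -2.07 for Itga3. These calls of Itga6 and Itga3 held in limma without any 1 library and without mutant libraries 1 and 2. Between the groups that hold proprioceptors neither gene was called, with limma intervals of -0.33 to 0.29 for Itga6 and -0.25 to 0.82 for Itga3.

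The ratio of Itga6 to Itga3 RPKM was 4.42 to 7.64 in TrkC:GFP libraries, 3.22 to 7.55 in wild-type PV libraries and 0.0982 to 0.179 in mutant PV libraries. Itga7, the other alpha subunit grouped here as laminin-binding, is known from muscle and peripheral nerve. It was at 7.95 ± 0.467, 5.51 ± 1.06 and 5.96 ± 3.38 RPKM (SD, n = 3) and was not called in any of the 3 comparisons. Its mutant libraries were spread from 3.54 to 9.82, and without mutant library 1, the highest, limma gave 1.04 for TrkC:GFP over mutant PV neurons (adjusted p = 0.0089). Summed over Itga3, Itga6 and Itga7, RPKM was 34.2 to 41.0 in TrkC:GFP, 35.1 to 36.8 in wild-type PV and 36.8 to 43.5 in mutant PV libraries, so the sums overlapped while the makeup differed. The stacked plot of these subunits shows this by library.

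**Figure D4:**
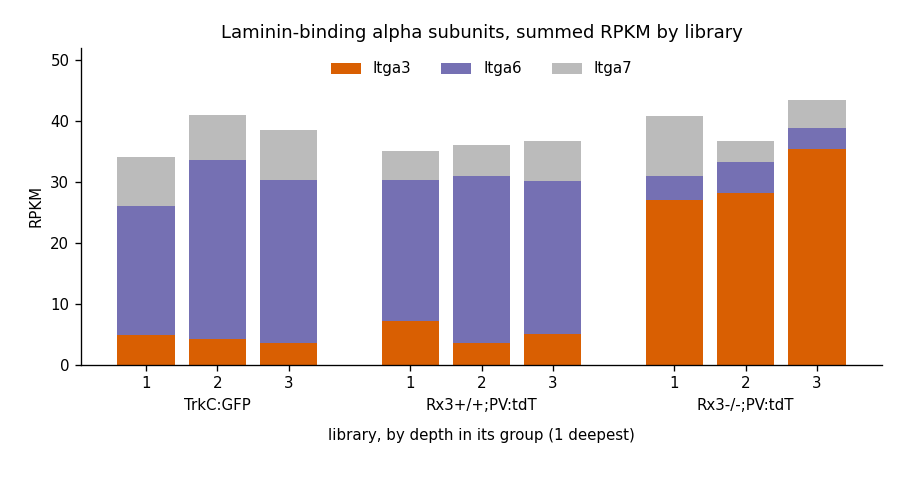
RPKM of Itga3, Itga6 and Itga7 stacked for each of the 9 libraries, in the order of their depth within a group. The total stays between 34.2 and 43.5, mostly Itga6 in TrkC:GFP and wild-type PV libraries and mostly Itga3 in mutant PV libraries.

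Itga4 and Itga9 encode related subunits that bind fibronectin and VCAM1 (alpha4) and tenascin-C and osteopontin (alpha9). Itga4 was at 10.7, 9.46 and 9.22 RPKM in TrkC:GFP libraries, at 10.6, 13.4 and 11.1 in wild-type PV libraries, and at 4.26, 6.21 and 6.16 in mutant PV libraries. The mutant libraries all lay below the others. Over mutants the authors' deposited table had log2 values of 0.83 and 1.08 (adjusted edgeR p = 0.0029 and 2.8e-06), and limma gave 0.87 (SE 0.17) and 1.12 (SE 0.17). Without mutant libraries 1 and 2 the TrkC:GFP value was 0.67 with a limma adjusted p of 0.10. Exons of Itga4 share 8.04% of their bases with Cerkl on the opposite strand, and the strandedness of the counting was not given in the sources used here.

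Itga9 ran the other way. It was at 1.11, 2.25 and 1.12 RPKM in TrkC:GFP, at 3.97, 2.80 and 3.17 in wild-type PV, and at 5.55, 4.61 and 5.41 in mutant PV libraries, with no overlap between groups. TrkC:GFP neurons were thus lowest, at -1.79 (log2) against mutants in the authors' deposited table (adjusted edgeR p = 1.1e-06; limma -1.85, SE 0.26, adjusted p = 0.00029). Wild-type PV neurons were at -0.64 against mutants in the authors' deposited table (adjusted edgeR p = 0.03), a difference that limma called with all libraries (adjusted p = 0.043) and lost without wild-type PV library 2 or 3, mutant library 1 or 3, or TrkC:GFP library 3 (0.053 to 0.16). Over TrkC:GFP neurons, wild-type PV neurons were at 1.15 in the authors' deposited table (adjusted edgeR p = 0.005), whereas limma gave 1.21 (SE 0.27) with an adjusted p of 0.10, and 0.022 without TrkC:GFP library 2.

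The alpha subunits that recognise the RGD tripeptide of fibronectin and vitronectin were low. Itgav, which encodes the alphav subunit, was at 3.72, 0.690 and 3.07 RPKM in TrkC:GFP libraries, at 2.12, 0.984 and 1.73 in wild-type PV, and at 3.87, 4.11 and 2.65 in mutant PV libraries. Library 2 was the lowest of its group in both groups that hold proprioceptors. Itgav was lower in wild-type than in mutant PV neurons by -1.14 in the authors' deposited table (adjusted edgeR p = 0.0017), and limma gave -1.24 (SE 0.47, adjusted p = 0.071), or 0.037 and 0.004 without TrkC:GFP library 1 or 2. In this fit all groups share 1 estimate of the spread.

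Itga8, whose product binds nephronectin and is known for its part in kidney development, had 112 and 143 reads in mutant libraries 1 and 2 and 3 reads in mutant library 3. Those are the libraries with kidney-gene reads. It had 16 to 25 reads in each library of the other groups. The authors' deposited table gave -2.41 for wild-type over mutant PV neurons (adjusted edgeR p = 0.0046). limma gave -2.24 (SE 0.78, adjusted p = 0.051), and -2.88 without mutant library 3 (adjusted p = 0.00028), when the TrkC:GFP value of -2.24 was called too (adjusted p = 0.00093). In mutant library 3, Itga8 was at 0.110 RPKM, below all 6 libraries of the other groups, from 0.204 to 0.424. Itga5 and Itga2b, the alpha subunits of the fibronectin receptor and of the platelet fibrinogen receptor, stayed under 1 RPKM in every library and were not called.

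The leukocyte alpha subunits were near the floor, as were the immune markers, whose 8 genes summed to 1.77 to 11.1 RPM in the 9 libraries. Itgal had 2 to 44 reads a library and was not called in comparisons of any 2 groups. Itgae had 10 and 13 reads in TrkC:GFP and wild-type PV neurons and none in mutants, where 3 reads over the group would be 0.0222 RPKM. Itgad had 2 reads in all, Itgam 13, and Itgax none. Reads of Itgam can also fall on an overlapping gene model on the same strand, which shares 68.7% of its exon bases.

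Among beta subunits, Itgb1, the shared partner of most matrix-binding alpha subunits, made up 89.2, 89.8 and 91.1% of the summed deposited RPKM of the 8 beta genes in TrkC:GFP, wild-type PV and mutant PV neurons. It was at 42.8 ± 7.21, 45.1 ± 8.05 and 52 ± 8.46 RPKM (SD, n = 3), and the libraries of all groups overlapped. It was not called in any of the 3 comparisons, with limma intervals of -0.68 to 0.05 for TrkC:GFP over mutant PV, -0.59 to 0.12 for wild-type over mutant PV, and -0.27 to 0.44 for wild-type PV over TrkC:GFP neurons. A difference of 2-fold thus lies outside each interval.

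Itgb3 encodes the beta3 subunit, a partner of alphav. It was at 2.70, 2.35 and 3.29 RPKM in TrkC:GFP, 3.18, 3.24 and 2.52 in wild-type PV, and 1.44, 0.362 and 0.338 in mutant PV libraries. All mutant libraries lay below the others, and mutant library 1, with 109 reads, held most of the mutant reads. Over mutants the authors' deposited table gave 1.92 and 2.01 (adjusted edgeR p = 0.0025 and 0.00024), and limma gave 2.06 (SE 0.43) and 2.19 (SE 0.42). The fitted values were 2.94 and 3.06 at most when libraries were left out, and both calls held under each of those alternatives. Itgb3 and Itgav thus differed in sign between wild-type and mutant PV neurons.

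Itgb8, another partner of alphav, was at 2.27, 0.198 and 1.14 RPKM in TrkC:GFP, 1.49, 0.730 and 1.17 in wild-type PV, and 2.11, 1.87 and 2.58 in mutant PV libraries. It was called lower in wild-type than in mutant PV neurons at -0.94 in the authors' deposited table (adjusted edgeR p = 0.043), and limma gave -0.93 (SE 0.52, adjusted p = 0.21; 0.049 without TrkC:GFP library 2). Itgb7, a leukocyte beta subunit, had 2 reads in wild-type and 32 in mutant PV libraries. The mutant over wild-type ratio was 20.3, with a counting interval of 5.18 to 175. Both take wild-type libraries listed without reads as empty, although each may have held 1 read. Wild-type over mutant PV neurons was at -3.59 in the authors' deposited table (adjusted edgeR p = 0.0022), a 12.0-fold difference. In limma Itgb7 lost the call without wild-type PV library 1 or 3 (adjusted p = 0.069 and 0.06). Itgb5 had 57 and 72 reads in mutant libraries 1 and 2 and 4 in mutant library 3, the same split as Itga8, and limma called it lower in both other groups only without mutant library 3 (adjusted p = 0.0052 and 0.016). With the groups that hold proprioceptors joined, Itgb5 was lower than in mutants, at -1.44 in the authors' deposited table (adjusted edgeR p = 0.036). Itgb4 and Itgb6, epithelial subunits, stayed under 0.6 RPKM and were not called, although Itgb4 was lower in wild-type than in mutant PV neurons in limma without mutant library 2 (adjusted p = 0.028), and Itgb2, the main leukocyte beta subunit, had 5 reads in all.

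Among laminin chains, those of the trimers made by Schwann cells, vessels and connective tissue were the most abundant. Lamc1, the gamma chain of most laminins, was at 19.9, 5.65 and 15.8 RPKM in TrkC:GFP, 13.8, 8.13 and 9.39 in wild-type PV, and 15.9, 19.9 and 12.4 in mutant PV libraries. Lamb1 was at 7.75, 1.20 and 5.10, at 5.75, 2.78 and 3.18, and at 7.18, 6.62 and 5.53 RPKM. Lama2, the alpha chain of Schwann cell laminin, was at 9.60, 1.23 and 6.63, at 6.24, 2.59 and 3.45, and at 7.47, 7.34 and 4.06 RPKM. For all 3 chains library 2 was the lowest in TrkC:GFP and in wild-type PV neurons.

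Lama4, an alpha chain of vessel and nerve basement membranes, had the same order in TrkC:GFP and wild-type PV neurons, at 6.35, 0.910 and 4.99 RPKM, at 4.62, 1.70 and 3.02, and at 8.28, 9.54 and 7.33. Its mutant libraries all lay above the others. Against mutants, the wild-type PV value was -1.43 for Lama4 (adjusted edgeR p = 2.1e-05), -0.73 for Lamb1 (0.038) and -0.62 for Lamc1 (0.048) in the authors' deposited table, and Lama2 was not called (-0.62, adjusted p = 0.18). limma called only Lama4 of these with all libraries (-1.55, SE 0.50, adjusted p = 0.038), and Lama4 lost that call without wild-type PV library 2 or 3, or without mutant library 1, 2 or 3 (adjusted p = 0.056 to 0.15). Without TrkC:GFP library 2, limma also called Lamb1 (adjusted p = 0.03) and Lamc1 (0.031). Against mutants, the TrkC:GFP values of Lama4, Lamb1 and Itgb8 were called lower by limma only without TrkC:GFP library 1 (adjusted p = 0.018, 0.047 and 0.024).

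Most glial markers were low in the same TrkC:GFP library as these chains. Of 10 recovered glial markers with reads there, 7 were in library 2 at 50% or less of the mean of the other libraries, and 6 of 16 members at 1 RPKM or more were (Itgav, Itgb8, Lama2, Lama4, Lamb1 and Lamc1), against 4.47% of 11863 genes at that level. In wild-type PV neurons the counts were 2 of 10 glial markers and 1 of 17 members, against 1.52% of 11217 genes. The 11 recovered glial markers summed to 618, 347 and 421 RPM in the TrkC:GFP libraries, to 458, 366 and 390 in wild-type PV and to 413, 395 and 378 in mutant PV libraries. Between groups the sums overlapped. S100b, which mechanoreceptor neurons are known to express too, was the marker with the highest level and was highest in TrkC:GFP library 2, at 247 RPM against 150 and 116. Without S100b, an alternative chosen after seeing the data, the sums were 468, 100.2 and 306 in TrkC:GFP, 275, 195 and 178 in wild-type PV and 171, 156 and 90.9 in mutant PV libraries, so that those of wild-type and mutant PV neurons did not overlap. In the authors' deposited table the myelin gene Mbp was higher than in mutants in TrkC:GFP and wild-type PV neurons (2.46 and 2.20; edgeR adjusted p = 3.5e-14 and 1.2e-16). Another myelin gene, Pmp22, was lower in the authors' deposited table (-2.0 and -1.86; edgeR adjusted p = 9.3e-12 and 9.9e-18). Endothelial and mural markers, 11 genes, summed to 7.97 to 16.5 RPM in TrkC:GFP and 5.51 to 12.4 in wild-type PV libraries. In mutant PV libraries 1, 2 and 3 they summed to 28.5, 41.8 and 15.5 RPM. Cldn5 and Tie1 had no reads in TrkC:GFP and wild-type PV libraries, nor in mutant library 3. Of 7 fibroblast and meningeal markers, 4 were higher and 2 lower in wild-type than in mutant PV neurons in the authors' deposited table. Of all genes, 7.82% and 8.57% were. In TrkC:GFP against mutant PV neurons that table had 1 higher and 2 lower (5.87% and 4.2% of all genes). The part of glial, vessel and connective tissue RNA in the laminin values was not tested.

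**Figure D5:**
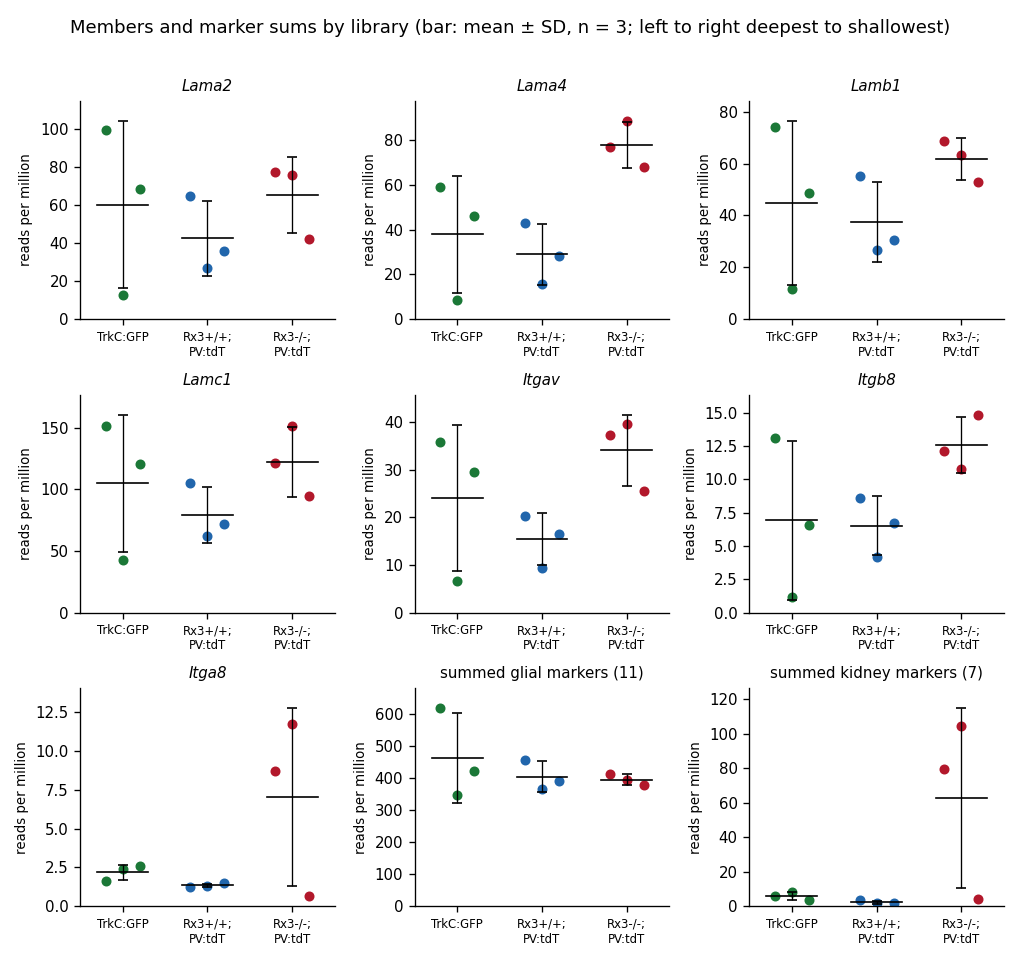
Values by library, in RPM, of 7 members and of the summed glial and kidney markers, with the group mean and SD (n = 3) as bars and libraries drawn from deepest to shallowest. Library 2 of the TrkC:GFP group is lowest for Lama2, Lama4, Lamb1, Lamc1, Itgav and Itgb8, and Itga8 follows the kidney markers in the mutant libraries.

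Lama3, whose product joins the epithelial laminin that anchors integrin alpha6 beta4, was lowest in library 2 in wild-type PV but not in TrkC:GFP neurons. It was at 1.17, 1.84 and 1.83 RPKM in TrkC:GFP, 1.31, 0.859 and 1.01 in wild-type PV, and 3.02, 4.60 and 3.34 in mutant PV libraries. All mutant libraries lay above the rest. The authors' deposited table gave -1.19 and -1.79 against mutants (adjusted edgeR p = 0.00082 and 1.2e-09), and limma gave -1.23 (SE 0.24) and -1.79 (SE 0.25), where the TrkC:GFP call was lost without mutant libraries 1 and 2 (-1.11, adjusted p = 0.079). Lamb3, a beta chain of that epithelial laminin, had at most 19 reads in a library and was not called.

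Lamb2, a beta chain of synaptic and vessel basement membranes, was at 0.377 ± 0.211, 0.239 ± 0.144 and 1.15 ± 0.321 RPKM (SD, n = 3), and Lama5, an alpha chain of mature basement membranes, at 0.0822 ± 0.0514, 0.0298 ± 0.00804 and 0.292 ± 0.107. All mutant libraries lay above the others for both. Against mutants, Lamb2 was at -1.63 in TrkC:GFP and -2.26 in wild-type PV neurons in the authors' deposited table (adjusted edgeR p = 0.035 and 0.00045). In limma the TrkC:GFP call of Lamb2 (adjusted p = 0.026) was lost without TrkC:GFP library 1 or 2 or mutant library 2 (0.061, 0.10 and 0.068). Lama5 was at -3.26 in wild-type PV neurons in the authors' deposited table (adjusted edgeR p = 3.4e-06), from 13 wild-type and 102 mutant reads, and at -1.84 in TrkC:GFP neurons (adjusted p = 0.057). That TrkC:GFP difference was called by limma (-2.02, adjusted p = 0.03), and was lost there without TrkC:GFP library 1 or 3 or mutant library 2 (0.16, 0.06 and 0.074). Without mutant libraries 1 and 2, limma no longer called Lamb2 and Lama5 lower in wild-type PV neurons (adjusted p = 0.14 and 0.053). Lama1, of early embryonic basement membranes, stayed under 0.6 RPKM and was not called (limma adjusted p = 0.049 for TrkC:GFP over mutants without mutant library 2), and Lamc3 had no reads in any library, where 3 reads over a group would be 0.0134 to 0.017 RPKM.

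Genes around the receptors were read from lists. The adhesion machinery inside the cell was covered by 29 measured components. In the authors' deposited table, 2 were higher and 4 lower in TrkC:GFP than in mutant PV neurons (5.87% and 4.2% of all genes). In wild-type against mutant PV neurons that table had 2 higher and 3 lower (7.82% and 8.57% of all genes). Tns1, a tensin that ties integrins to actin, was higher by 0.81 and 0.80 in the authors' deposited table (adjusted edgeR p = 0.0025 and 0.00061). The paxillin gene Pxn and the parvin genes Parva and Parvb were lower, at -2.0, -2.14 and -0.88 in TrkC:GFP and at -2.68, -1.80 and -0.66 in wild-type PV neurons, in the authors' deposited table. Parva was at 7.40, 5.14 and 13.7 RPKM in mutant libraries and at 1.57 to 3.23 in all others, and Pxn at 8.20, 6.63 and 3.41 against 0.639 to 1.86. The median of the list was -0.12 and -0.31, beside 0 over all genes.

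Among 18 other ligands of integrins and laminins, the authors' deposited table had 1 higher and 2 lower in TrkC:GFP than in mutant PV neurons. Of all genes, 5.87% and 4.2% were. That table had 3 higher and 5 lower in wild-type than in mutant PV neurons (7.82% and 8.57% of all genes). Tnr, the tenascin-R gene, was at 7.25, 7.97 and 7.10 RPKM in TrkC:GFP, 5.65, 9.98 and 6.49 in wild-type PV, and 0.144, 0.914 and 0 in mutant PV libraries, with log2 fold changes over mutants of 4.24 and 4.23 in the authors' deposited table (adjusted edgeR p = 2.5e-10 and 1.5e-10). Postn, the periostin gene, was lower in both groups than in mutants, by -1.82 and -1.91 in the authors' deposited table (adjusted edgeR p = 0.0045 and 8.3e-09). Its TrkC:GFP libraries were at 31.6, 3.75 and 19.5 RPKM, again lowest in library 2. Spp1, the osteopontin gene and a ligand of alpha9 and alphav integrins, was higher in wild-type PV than in both mutant PV (1.85) and TrkC:GFP neurons (1.17) in the authors' deposited table (adjusted edgeR p = 9.2e-05 and 0.0048). Agrn, the agrin gene, was lower in wild-type PV than in TrkC:GFP neurons at -0.90 in the authors' deposited table (adjusted edgeR p = 0.0016).

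Of 14 laminin receptors that are not integrins, 2 were called in each comparison with mutants in the authors' deposited table from edgeR, both lower. Of all genes, 4.2% were called lower than in mutants in TrkC:GFP and 8.57% in wild-type PV neurons. Bcam, a receptor for the laminin alpha5 chain, was at 22.6, 27.5 and 24.7 RPKM in TrkC:GFP, 31.3, 12.2 and 30.3 in wild-type PV, and 87.5, 45.1 and 41.8 in mutant PV libraries. It was lower by -1.22 and -1.24 in the authors' deposited table (adjusted edgeR p = 0.0002 and 0.0029). Dag1, the dystroglycan gene and so the main other laminin receptor of Schwann cells and neurons, was not called, at 23.0 and 23.1 RPKM in wild-type and mutant PV neurons.

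The remaining comparisons joined groups. With TrkC:GFP set against both PV groups, Itga9 alone was called lower, at -1.50 in the authors' deposited table (adjusted edgeR p = 0.011), where 0.286% of all genes were, and 0 members were higher (0.169% of all genes; 1 member, Itga5, at an unadjusted p under 0.05, as were 3.87% of all genes). limma kept the joined groups apart and averaged their fitted log2 levels in these comparisons. It called Itga6 higher and Itga3 and Itga9 lower in TrkC:GFP, beside 4.98% and 1.89% of the genes fitted. Itga6 was at 25.8, 25.2 and 4.14 RPKM in TrkC:GFP, wild-type PV and mutant PV neurons, and Itga3 at 4.19, 5.30 and 30.2. Neither was called between TrkC:GFP and wild-type PV neurons. With both proprioceptor-holding groups set against mutants, 5 members were higher and 8 lower in the authors' deposited table from edgeR, against 8.82% and 7.96% of all genes, and limma called 5 and 9 (14.4% and 12.7%). Itga2, Itga4, Itga6 and Itgb3, higher in each comparison with mutants, were among the 5.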

How the data were processed

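The 5 tables used here, deposited by the authors, each hold 1 comparison between groups over 23038 genes, with 1 value per group. Per the file headers, each gene has the authors' log2 fold change and log2 CPM averaged over samples, an edgeR p-value beside its adjusted p, an RPKM for each group and a flag, which is a score of -1, 0 or 1 by a rule not given in the sources used here. The genome build mm10 and the tool edgeR come from the submitters' processing notes, while aligner and counter were not given in the sources used here. cDNA was amplified ahead of the poly-A step, per the labels' protocols, which can distort low values. The deposited RPKM column named for Rx3 was read as TrkC:GFP, the group whose cell types its table names.

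The deposited RPKM equalled, to 15 significant digits, the mean over 3 libraries of whole reads scaled by gene length and library size, with reads of 0 set to 1, so that whole reads, library sizes and gene lengths were solved for together. For 23026 genes exactly 1 set of reads was found at the smallest gene length that fitted, where the search stopped. Of these, 22751 with at most 8000 reads in every library were used. For the 37 members a window of other lengths was searched too, multiples of the fitted length left aside, and no other solution was found. Differences computed from recovered reads, scaled by library size alone, lay within 0.1 (log2) of the deposited value for 99.0%, 98.8% and 99.98% of genes compared in comparisons 1 to 3 (TrkC:GFP against mutant PV, wild-type against mutant PV, wild-type PV against TrkC:GFP). The genes compared were the 12476, 12201 and 12517 with a mean of 1 RPM or more in both groups. Members below that level, such as Itgb7 in wild-type PV neurons, were not covered. Recovery and the fit were tested on simulated data. The fit with error used limma 3.58.1 in R 4.3.3 on genes with at least 10 reads over all libraries; counting intervals and floors (3 reads) hold counting error alone, as reads from amplified cDNA are not independent molecules. The deposited p-values were the main test, and called means an adjusted p under 0.05.

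Members, gene lists and tests were chosen with earlier results of these data known. Named were Itga2 and members called in comparisons 1 to 3, at 10 RPKM or more in a group, or without reads in a group. Other members were given by range. The rule also admitted up to 4 called genes with the smallest adjusted p per list and comparison, and any gene of the neuronal identity list. Not every list gene that it admitted is named. Dag1 lies outside this rule and was chosen after its values were seen. Of the members counted, 1 is not reported here. Coordinates are those of RefSeq GRCm38.p6, the same primary assembly as mm10. Scaling by the median of genes at 1 RPKM or more would shift log2 values by 0.07, -0.03 and -0.09. Alternatives tried were other thresholds, the flag, a filter on low values, Bonferroni adjustment, pseudocounts, limma, and leaving out libraries.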

Additional observations from a re-analysis of the deposited data

How the results depend on the processing

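Between wild-type and mutant PV neurons, 5 members were higher under every threshold tried and with limma, except 4 under Bonferroni adjustment and 4 with limma without mutant libraries 1 and 2; limma gave 5 without each library in turn. The 12 lower members became 4 under the authors' flag, 4 under Bonferroni, 7 in limma, 4 to 11 in limma without each library in turn, and 2 without mutant libraries 1 and 2. For TrkC:GFP against mutant PV neurons, the 5 higher members became 3 under the flag, 2 under Bonferroni, 5 to 6 in limma without each library in turn and 2 without mutant libraries 1 and 2, and the 4 lower became 2, 3 to 7 and 2 under the last 3 of these. Wild-type PV over TrkC:GFP gave 2 higher, but 1 under Bonferroni, 1 in limma and 0 to 2 without each library in turn. TrkC:GFP against both PV groups gave 1 lower, 0 at an adjusted p under 0.01, 0 under the flag, 0 under Bonferroni and 2 in limma, which also called 1 higher in place of 0. The limma contrast there averaged the fitted log2 levels of PV groups kept apart. Both proprioceptor-holding groups against mutants gave 5 higher (3 under the flag) and 8 lower (3 under the flag, 2 under Bonferroni). These limma alternatives were chosen after seeing the data, and the cause of the changed counts was not tested, except that fewer libraries enter when some are left out; the lone mutant library then left is assumed to vary like the other groups.

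Between wild-type PV and TrkC:GFP neurons the sign turned from the deposited value to limma for Itgb8 (0.41 in limma) and Lamb1 (0.042), neither called, and signs of uncalled members turned in other comparisons too; 6 named values lost their call in limma and 1 gained one. With pseudocounts of 0.1 and 1 on the RPKM ratio, 20 and 32 named log2 values moved by more than the spread between libraries. The centring on the median of genes at 1 RPKM or more kept the sign of every call. No paired analysis was possible because the recovered libraries carry no replicate number. In all, 22 of the 37 members had under 1000 reads over the 9 libraries, which limits the precision of their values.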
